A study of Homo sapiens with 6 samples.

Results

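Transcription factors of the intestinal epithelium were examined in HCT116 cells, a human colorectal carcinoma line, that stably expressed hairpins against PEA15. The members were 10 genes of the KLF, ELF, CDX, HNF, GATA and HES families: KLF4, KLF5, KLF6, ELF3, ELF5, CDX1, CDX2, HNF4A, GATA6 and HES1. They were taken by name, and the choice was made with earlier results of these data known. Every array probe listed under one of these symbols was taken, which found 9 of the 10 genes among the 20046 named on the array, with 11 of its 47323 probes. No probe was listed under HNF4A in the annotation used here, so HNF4A was not analysed here. The 6 samples formed 3 groups of 2: HCT116 cells that carried a non-silencing control hairpin (NS shRNA), PEA15 shRNA 1 or PEA15 shRNA 2, all grown in the same serum-containing medium. The labels describe stable lines and do not say whether a line was 1 clone or a pool. They number the replicates without saying that these were separate cultures, so the p-values cover the spread of these 6 samples alone, part or all of which may be technical.

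The absorptive and secretory cells of the gut arise from dividing crypt cells, and transcription factors of these families set which programme a cell follows. KLF5 is known in dividing crypt cells, KLF4 in cells that have left the cycle and in goblet cells. CDX1, CDX2, HNF4A and GATA6 hold intestinal identity, ELF3 and ELF5 are ETS factors of epithelia, and HES1 is the repressor through which Notch signalling holds back the secretory fate. PEA15, the gene the hairpins target, encodes a small adaptor protein known to hold the ERK kinases in the cytoplasm.

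Against the control the calls lay with shRNA 2, where KLF4 was higher and ELF5 lower. KLF4 was also higher with shRNA 1 without passing the test, and its difference between hairpins did not pass. The promoters of KLF4, ELF5 and ELF3 are shown so that their letters can be compared. Entries of the RefSeq promoter set (GRCh38.p14, 250 bases before to 50 after a gene's start) were matched for 9 of the 10 genes, all but CDX1. Capitals mark the core of KLF sites (CACCC) and the core of ETS sites (GGAAG) on either strand. The KLF4 promoter lies at chr9:107489720-107490019 on the minus strand, that of ELF3 at chr1:202010337-202010636 on the plus strand and that of ELF5 at chr11:34511675-34511974 on the minus strand.
KLF4: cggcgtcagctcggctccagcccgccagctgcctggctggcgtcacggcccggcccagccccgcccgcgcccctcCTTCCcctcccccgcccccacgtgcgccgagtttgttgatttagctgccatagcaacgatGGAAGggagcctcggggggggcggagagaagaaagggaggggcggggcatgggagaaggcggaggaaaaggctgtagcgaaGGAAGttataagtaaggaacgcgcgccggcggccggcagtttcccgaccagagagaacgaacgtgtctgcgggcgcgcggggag
ELF3: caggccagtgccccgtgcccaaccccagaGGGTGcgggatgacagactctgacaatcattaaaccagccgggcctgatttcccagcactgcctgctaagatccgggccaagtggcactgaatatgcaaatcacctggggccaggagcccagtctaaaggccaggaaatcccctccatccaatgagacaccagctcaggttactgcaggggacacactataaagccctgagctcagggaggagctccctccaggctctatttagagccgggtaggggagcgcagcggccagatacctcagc
ELF5: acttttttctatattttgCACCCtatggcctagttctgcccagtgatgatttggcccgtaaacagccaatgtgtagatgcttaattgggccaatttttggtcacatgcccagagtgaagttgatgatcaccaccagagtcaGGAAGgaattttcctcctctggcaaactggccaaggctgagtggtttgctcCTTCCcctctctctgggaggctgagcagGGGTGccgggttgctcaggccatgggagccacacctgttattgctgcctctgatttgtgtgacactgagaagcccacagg
The KLF4 window held 3 matches to GGAAG and 0 to CACCC, the ELF3 window 0 and 1, and the ELF5 window 2 of each. These letters are common, since CACCC occurred in 59.9% and GGAAG in 71.9% of 35116 promoters of the same length. The HES1 promoter held 4 matches on either strand to CACNAG, the N box known as a site of HES repressors. CDX2 and an HNF4A window held 2 each, ELF3, ELF5, GATA6 and a KLF5 window 1 each, and the other member windows none. At least 1 match occurred in 38% of promoters, and how often 4 occur was not counted. Such matches describe the letters of these windows and show no binding.

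The arrays read an epithelial line. All 8 epithelial marker genes, among them EPCAM, KRT8 and CDH1, were detected on all 6 arrays. None of the 4 endothelial markers was detected on any array, and neither were PTPRC and CD3E of leukocytes or COL1A2, COL3A1 and PDGFRB of fibroblasts. CD14, CD68 and COL1A1 were detected on all 6 arrays, ITGAM on 1 and DCN on 2. For the targeted PEA15 the log2 levels were 8.97 and 9.15 with the control hairpin, 8.22 and 8.17 on the shRNA 1 arrays and 7.71 and 7.93 on the shRNA 2 arrays. PEA15 was therefore lowest with shRNA 2, and its test against the control passed with shRNA 2 (limma adjusted p = 0.00573). Between hairpins the PEA15 change of -0.38 did not pass (limma adjusted p = 0.122), though it did under 4 of 15 alternatives. With shRNA 1 the PEA15 change was -0.86 (unadjusted p = 0.000129, adjusted p = 0.122), which passed under 4 of 15 alternatives, in a range of adjusted p from 0.00022 to 0.427. For shRNA 2, leaving out NS shRNA replicate 2 (-1.14, adjusted p = 0.0745) or PEA15 shRNA 2 replicate 1 (-1.12, 0.0592) ended the PEA15 call, in a range of 4.6e-07 to 0.0745 over 15 alternatives. Between 19441 and 20351 probes were detected on an array, and the 2 arrays a group limit the precision.

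Which of these factors the cells expressed was read from the deposited signal, a bead intensity in arbitrary linear units, and its detection p-value, the share of blank control beads that were as bright or brighter. A probe was called detected at a detection p under 0.05, and the median signal of an array lay between 102 and 109. KLF6, ELF3, CDX2, HES1, KLF4 and KLF5 were detected on all 6 arrays, and KLF4 with both of its probes. One ELF5 probe was detected on the 4 arrays of the NS and shRNA 1 groups and on neither shRNA 2 array. The other ELF5 probe, annotated to another RefSeq transcript (NM_001422, against NM_198381 for the detected probe), was detected on 0 arrays, with signals from 83.6 to 102. CDX1, a homeobox factor of the intestine, was detected on 0 arrays, with signals from 90.3 to 98.6. The probe of GATA6, a zinc finger factor of gut progenitors, read 100.4 and 111 on the NS arrays, 104 and 116 on the shRNA 1 arrays and 94.7 and 106 on the shRNA 2 arrays. GATA6 was thus at the edge of detection, passing on NS shRNA replicate 2 and PEA15 shRNA 1 replicate 2 only. A probe entered the tests if it was detected on both arrays of at least 1 group, so that 8 of the 11 probes and 7 of the 10 genes were kept. ELF5 was kept through the groups in which it was brighter.

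**Figure D1:**
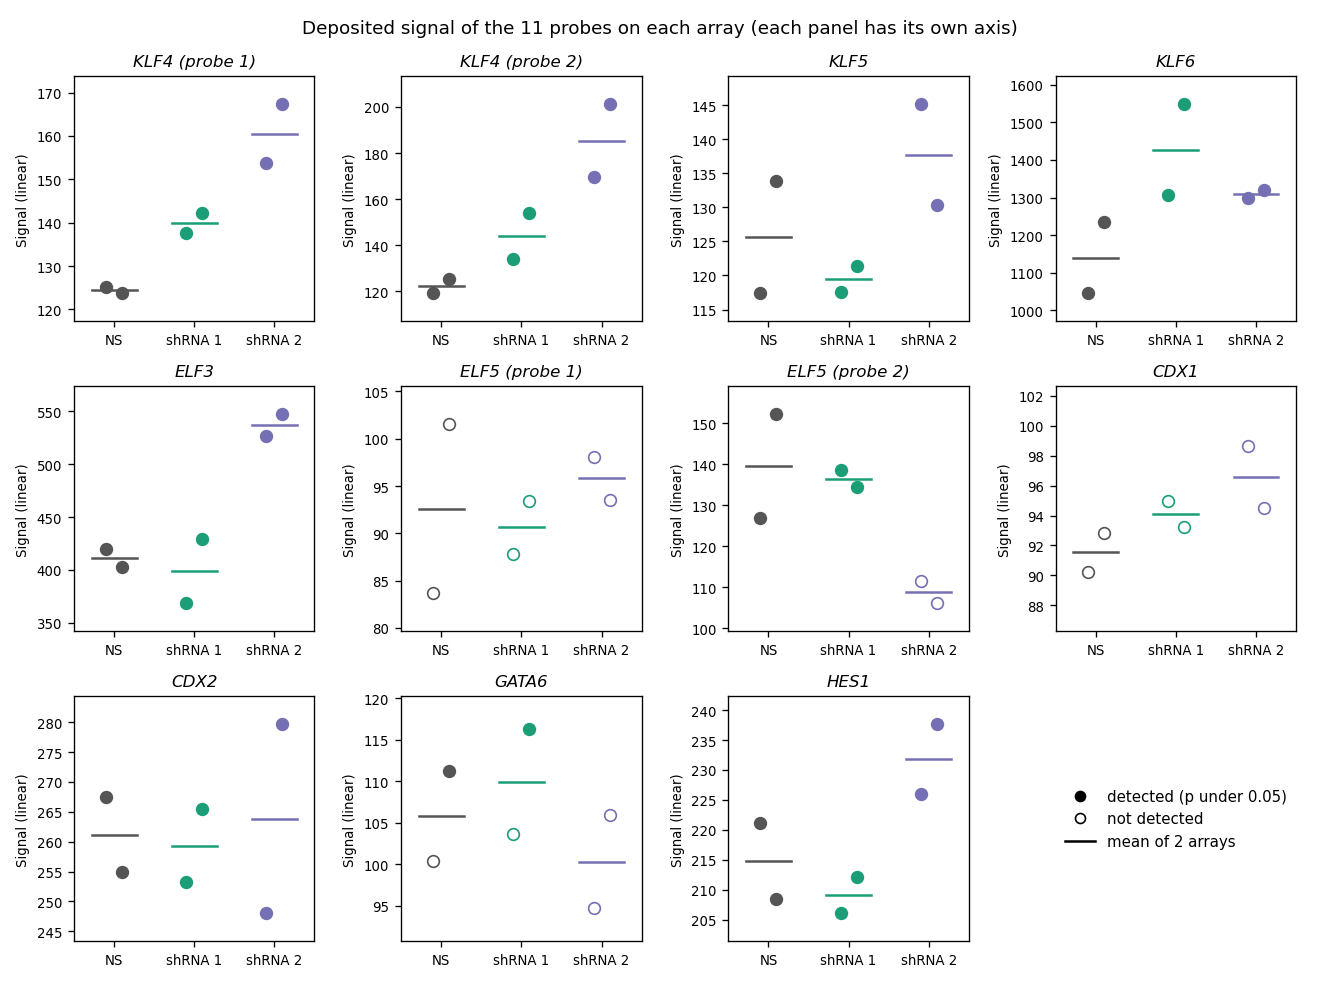
Deposited linear signal of the 11 member probes on each of the 6 arrays, with NS, shRNA 1 and shRNA 2 on the horizontal axis, filled points for detected and open points for undetected values, and a bar at the mean of 2 arrays. Both KLF4 probes are highest on the shRNA 2 arrays, and the second ELF5 probe falls from between 127 and 152 on the other 4 arrays to 112 and 106 on the shRNA 2 arrays.

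The first comparison asked which of the factors differed between PEA15 shRNA 1 and the non-silencing hairpin. None of the 7 tested genes passed (limma, Benjamini-Hochberg adjusted over 15967 rows, threshold 0.05), where 0.0188% of all rows did. An unadjusted p under 0.05 was reached by 2 of 7, KLF4 and KLF6, against 11.7% of all rows. On the normalized log2 scale the arrays of both groups did not overlap for 4 of 7, against 42.2% of all rows. KLF6, a widely expressed zinc finger factor that can restrain growth, read signals of 1046 and 1234 on the NS arrays and 1307 and 1547 with shRNA 1. Both shRNA 1 arrays were above both NS arrays, and the change was 0.31 ± 0.11 (log2, SE, n = 2 arrays a group; limma adjusted p = 0.356). KLF4 was at 0.52 ± 0.15 (adjusted p = 0.272). KLF5, at signals of 117 and 134 with NS shRNA and 118 and 121 with shRNA 1, was at -0.31 ± 0.20 (adjusted p = 0.617). ELF3, ELF5, CDX2 and HES1 lay between -0.13 and -0.043, each with a 95% confidence interval that included 0. The median change of the 7 genes was -0.094, beside -0.0036 over all rows.

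With PEA15 shRNA 2, KLF4 rose and ELF5 fell against the non-silencing hairpin. These were 2 of the 7 tested genes, where 1.7% of all rows passed, 1.2% higher and 0.495% lower, and nothing is read from that count. ELF5 entered the tests only through the groups in which it was brighter, and with no detection filter it did not pass (adjusted p = 0.100), while KLF4 did (adjusted p = 0.0430). The normalized log2 levels of both groups did not overlap for 3 of 7, against 50.1% of all rows. The median change of the 7 was 0.13, beside -0.0060 over all rows. The fitted changes of KLF4 and ELF5 lay outside the band from -0.37 to 0.39 that held the central 90% of all rows. Both had passed the test on these same values, so this is no separate support.

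KLF4, the zinc finger factor of non-dividing and goblet cells, read signals of 119 and 125 on the NS arrays, 134 and 154 on the shRNA 1 arrays and 169.8 and 201 on the shRNA 2 arrays. The 3 groups did not overlap, with NS lowest and shRNA 2 highest. On the normalized log2 scale the levels were 5.37 and 5.47 with NS shRNA, 5.80 and 6.08 with shRNA 1, and 6.43 and 6.76 with shRNA 2. The rise of KLF4 with shRNA 2 was 1.17 ± 0.15 (SE, n = 2 arrays a group), a 2.25-fold difference (95% confidence interval 1.78 to 2.86, limma adjusted p = 0.0144). The other KLF4 probe, drawn as probe 1, read 125 and 124 with NS shRNA, 138 and 142 with shRNA 1 and 154 and 167 with shRNA 2, in the same order of groups. Tested as a row of its own, it rose by 0.71 ± 0.11 with shRNA 2, a 1.64-fold difference (limma adjusted p = 0.0301). With shRNA 1 it was at 0.37 ± 0.11 (adjusted p = 0.296). The KLF4 probe of the main fit was chosen by its mean over all 6 arrays, so the choice used the values compared. On the NS arrays that probe was the dimmer, at a mean log2 level of 5.42 against 5.49. Leaving out 1 array ended the KLF4 call for NS shRNA replicate 1 (1.12, adjusted p = 0.128), NS shRNA replicate 2 (1.22, 0.105), PEA15 shRNA 2 replicate 1 (1.34, 0.0592) or PEA15 shRNA 2 replicate 2 (1.01, 0.0959), against adjusted p from 0.000198 to 0.128 over 15 alternatives. Without background correction the call held, and the change was 0.52.

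ELF5, an ETS factor best known from mammary and trophoblast cells and from glandular epithelia, read signals of 127 and 152 on the NS arrays, 138 and 135 on the shRNA 1 arrays and 112 and 106 on the shRNA 2 arrays. Both shRNA 2 arrays were below the other 4, which overlapped among themselves. The detection p was 0.0519 and 0.203 on the shRNA 2 arrays and 0 on the other 4, so the first of these values lay just past the limit of detection. Group means on the log2 scale were 5.90 ± 0.40 (SD, n = 2) with NS shRNA, 5.77 ± 0.21 with shRNA 1 and 4.71 ± 0.21 with shRNA 2. Since ELF5 was not detected on either shRNA 2 array, its level there is only a bound. By that bound ELF5 lay at least 2.10-fold below the mean of the NS arrays (limma adjusted p = 0.0387, fitted change -1.19). That bound takes the dimmest detected probe of each shRNA 2 array as the level there, or the ELF5 probe itself where it was brighter. The bound leaves out the spread of the NS arrays, and the 95% confidence interval of the fitted ratio was 0.316 to 0.607. It holds only for the settings of the main fit, since a larger offset gave a fitted change of -0.64. The call was lost without any 1 of the 6 arrays: without NS shRNA replicate 1 (-1.47, adjusted p = 0.0689), NS shRNA replicate 2 (-0.91, 0.158), PEA15 shRNA 1 replicate 1 or 2 (-1.19 and 0.0591 each), PEA15 shRNA 2 replicate 1 (-1.34, 0.137) or PEA15 shRNA 2 replicate 2 (-1.04, 0.178). It held under 6 of 15 alternatives (adjusted p from 0.001045 to 0.178), and without background correction, where it held, the change was -0.42.

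The other 5 tested factors did not pass with shRNA 2. ELF3, an epithelial ETS factor that enterocytes need to mature in mice, read signals of 419.6 and 403 on the NS arrays, 369 and 429 on the shRNA 1 arrays and 527 and 547 on the shRNA 2 arrays. Its shRNA 2 arrays were above all 4 others, and the change against NS shRNA was 0.37 ± 0.10 (95% confidence interval 0.14 to 0.59, limma adjusted p = 0.109). ELF3 passed against NS shRNA under 4 of 15 alternatives: a trended prior, a larger offset, normalization with no background correction and the log2 values of the submitters. KLF6 read 1299.7 and 1319.7 with shRNA 2, a change of 0.13 ± 0.11 (adjusted p = 0.592). KLF5, the factor of dividing crypt cells, read 145 and 130.3 with shRNA 2, was at 0.17 ± 0.20 (adjusted p = 0.713), and its arrays overlapped those of the control.

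Of the 7 tested factors, CDX2 and HES1 had the smallest differences between group means. CDX2, a homeobox factor that directs intestinal identity, read signals of 267 and 255 with NS shRNA, 253 and 265 with shRNA 1, and 248 and 279.6 with shRNA 2. All 3 groups overlapped, and the change was -0.043 ± 0.11 with shRNA 1 and -0.094 ± 0.11 with shRNA 2. The 95% confidence intervals of these CDX2 changes, as ratios, were 0.816 to 1.16 and 0.787 to 1.12. HES1, the Notch-induced repressor, read 221 and 208 with NS shRNA, 206 and 212 with shRNA 1, and 226 and 238 with shRNA 2. On the normalized scale its control arrays overlapped those of each hairpin, and the HES1 ratios to the control had intervals of 0.782 to 1.12 with shRNA 1 and 0.868 to 1.25 with shRNA 2. Differences within these intervals could not be told from 0 with 2 arrays a group.

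**Figure D2:**
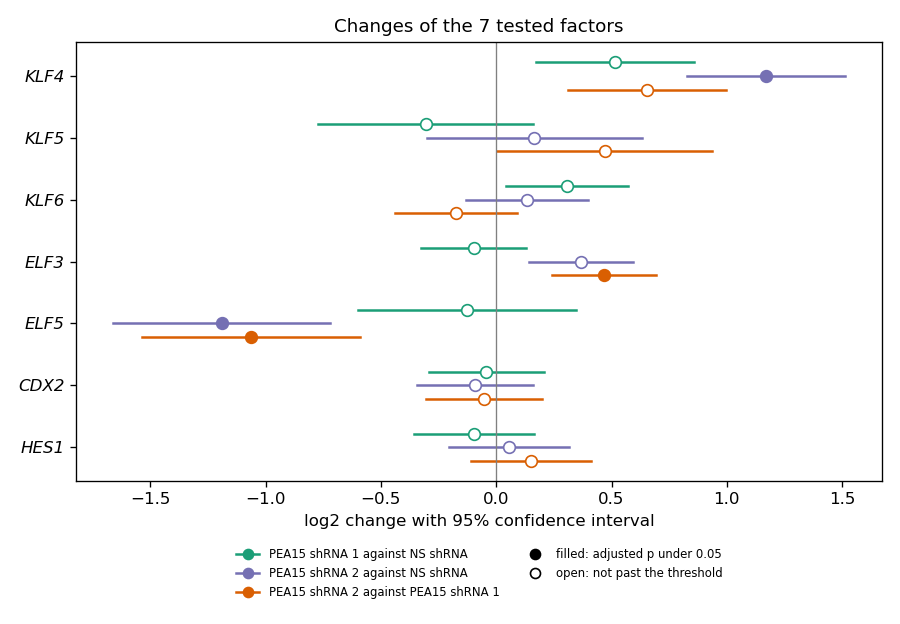
Log2 change of the 7 tested factors in the 3 comparisons, with 95% confidence intervals as lines, filled points for adjusted p under 0.05 and open points for the rest. KLF4 (1.17) and ELF5 (-1.19) are filled for shRNA 2 against NS shRNA, ELF5 (-1.06) and ELF3 (0.47) for shRNA 2 against shRNA 1, and no point is filled for shRNA 1 against NS shRNA.

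The direct comparison of both hairpins asked whether they differed in these factors. ELF3 was higher and ELF5 lower with shRNA 2 than with shRNA 1. These were 2 of 7 tested genes, where 3.32% of all rows passed, 2% higher and 1.32% lower. Nothing is read from that count either, since ELF5 was kept only through the NS and shRNA 1 groups and neither gene passed with no detection filter (adjusted p = 0.0995 for ELF5 and 0.0830 for ELF3). The normalized log2 levels of both groups did not overlap for 6 of 7, against 53.7% of all rows. ELF3 was 0.47 ± 0.10 higher (SE, n = 2 arrays a group), a ratio of 1.38 (95% confidence interval 1.18 to 1.62, limma adjusted p = 0.0490). That value is close to the threshold, and the call was lost without any 1 of the 6 arrays: without NS shRNA replicate 1 or 2 (0.47, adjusted p = 0.0804 each), PEA15 shRNA 1 replicate 1 (0.44, 0.184) or 2 (0.49, 0.129), PEA15 shRNA 2 replicate 1 (0.45, 0.177) or 2 (0.49, 0.175), against a range of 0.0018 to 0.184 over 15 alternatives. ELF5 lay at least 1.92-fold below the mean of the shRNA 1 arrays (fitted change -1.06, adjusted p = 0.0388). This bound again holds only for the settings of the main fit and leaves out the spread of those arrays. For ELF5 the 95% confidence interval of the fitted ratio was 0.345 to 0.664. Its call was lost without PEA15 shRNA 1 replicate 1 (-0.92, adjusted p = 0.168) or 2 (-1.21, 0.0982) and without PEA15 shRNA 2 replicate 1 (-1.21, 0.102) or 2 (-0.92, 0.179), and it held under 9 of 15 alternatives (adjusted p from 0.00195 to 0.179). KLF4 was 0.65 ± 0.15 higher with shRNA 2 without passing (adjusted p = 0.0587), and 6 of 15 alternatives took it past the threshold (range of adjusted p 0.0119 to 0.218). KLF5 was at 0.47 ± 0.20 (adjusted p = 0.220), HES1 at 0.15 ± 0.11, KLF6 at -0.18 ± 0.11 and CDX2 at -0.051 ± 0.11, none of which passed. These comparisons share arrays, so the same shRNA 2 arrays stand in both sets of shRNA 2 values.

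**Figure D3:**
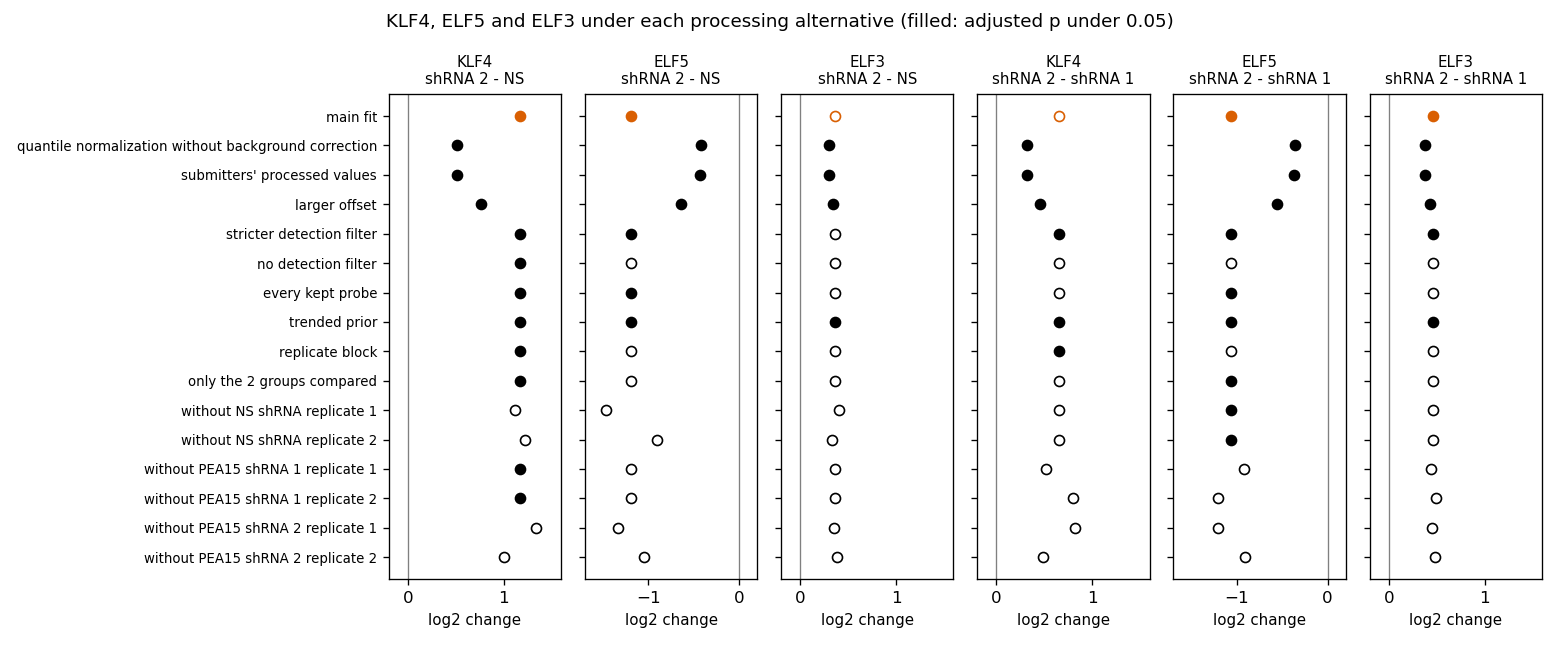
Log2 change of KLF4, ELF5 and ELF3 for shRNA 2 against NS shRNA and against shRNA 1, under the main settings (orange) and 15 alternatives (black), with filled points for adjusted p under 0.05. The direction is the same in every row of the 6 panels, while the change of ELF5 against NS shRNA runs from -1.47 to -0.42 and that of KLF4 from 0.51 to 1.34.

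Other genes of the same families were counted beside the members. Of 36 relatives, 19 were tested: 1 rose and 1 fell with shRNA 2 and 17 did not pass, where 1.7% of all rows passed. None passed with shRNA 1 (limma). An unadjusted p under 0.05 was reached by 3 of 19 with shRNA 1, 6 with shRNA 2 and 5 between hairpins. The shares of all rows were 11.7%, 17.9% and 22.4%. KLF9, a zinc finger factor induced by steroid and thyroid hormones, read signals of 198 and 234 on the NS arrays, 196 and 221 on the shRNA 1 arrays and 303 and 335 on the shRNA 2 arrays. Its shRNA 2 arrays were above the other 4, a rise of 0.73 ± 0.14 against NS shRNA (adjusted p = 0.0495) and of 0.83 ± 0.14 against shRNA 1 (adjusted p = 0.0237). HES2, a repressor related to HES1, read 284 and 280.4 with NS shRNA, 306 and 359 with shRNA 1, and 229 and 227 with shRNA 2. HES2 fell by 0.57 ± 0.10 against NS shRNA (adjusted p = 0.0435) and by 0.85 ± 0.10 against shRNA 1 (adjusted p = 0.0103). A second HES2 probe gave -0.18 (adjusted p = 0.396) and -0.50 (adjusted p = 0.0457). The median of the 19 relatives was -0.16 with shRNA 2, beside -0.0060 over all rows. Without any 1 of the 6 arrays KLF9 and HES2 did not pass against NS shRNA, with changes from 0.54 to 0.91 for KLF9 and from -0.64 to -0.51 for HES2 (adjusted p from 0.0832 to 0.202 and from 0.0739 to 0.200). Against shRNA 1, leaving out any 1 of the 4 arrays compared ended both calls, with changes from 0.78 to 0.88 for KLF9 and from -0.92 to -0.78 for HES2.

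Among 22 other lineage factors of the gut, 9 were tested, and 1 fell with shRNA 2, where 1.7% of all rows passed. None passed with shRNA 1 (limma). At an unadjusted p under 0.05 there were 2 of 9 with shRNA 1, 2 with shRNA 2 and 3 between hairpins. All rows gave 11.7%, 17.9% and 22.4%. MYB, a factor of dividing crypt cells, read signals of 400.4 and 417 on the NS arrays, 367 and 384 on the shRNA 1 arrays and 260.4 and 272 on the shRNA 2 arrays. MYB was lowest on both shRNA 2 arrays, falling by 0.93 ± 0.10 against NS shRNA (limma adjusted p = 0.00771) and by 0.74 ± 0.10 against shRNA 1 (adjusted p = 0.0132). The other 8 did not pass with shRNA 2, and their changes ran from -0.74 for the pioneer factor FOXA1 (adjusted p = 0.0686) to 0.22 for the homeobox factor HOXB13 (adjusted p = 0.572). Leaving out 1 array ended the MYB call against NS shRNA for NS shRNA replicate 1 (-0.96, adjusted p = 0.0784) or 2 (-0.91, 0.0836) and PEA15 shRNA 2 replicate 1 (-0.95, 0.0729) or 2 (-0.92, 0.0776), in a range of 7.2e-06 to 0.0836 over 15 alternatives. Against shRNA 1, leaving out any 1 of the 4 arrays compared ended the MYB call, with changes from -0.81 to -0.68.

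Genes that mark mature intestinal cells were mostly below detection. Of 36 such genes, 35 had a probe and 7 were tested: CA2, DPP4, FABP6, GPA33, KRT20, LYZ and SI. None of the 7 passed in any of the 3 comparisons (limma), and an unadjusted p under 0.05 was reached by 2 with shRNA 1, 1 with shRNA 2 and 1 between hairpins, against 11.7%, 17.9% and 22.4% of all rows. FABP6, a bile acid binding protein of the ileum, was one of the 2 with shRNA 1, at -0.54 (adjusted p = 0.223), stood at -0.25 with shRNA 2 (adjusted p = 0.335) and was the one between hairpins, at 0.29 (adjusted p = 0.217). GPA33, a surface antigen of intestinal epithelium, was the other with shRNA 1 and the one with shRNA 2, with fitted changes of 0.34 and 0.40 (adjusted p = 0.286 and 0.100). GPA33 was not detected on either NS array and was kept only through hairpin groups, in which it was brighter. By the kind of bound used for ELF5, the hairpin means were at least 1.06-fold and 1.11-fold higher. That bound leaves out the spread of the hairpin arrays, and neither change passed. The median of the 7 genes was -0.027 with shRNA 1 and -0.063 with shRNA 2.

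Of 33 genes of the Notch pathway, which induces HES1, 24 were tested, and 1 fell with shRNA 2, where 1.7% of all rows passed. None passed with shRNA 1 (limma). Unadjusted p-values under 0.05 were found for 2 of 24 with shRNA 1, 8 with shRNA 2 and 7 between hairpins. Among all rows the shares were 11.7%, 17.9% and 22.4%. LFNG, a glycosyltransferase that modifies Notch receptors, read signals of 333 and 327 with NS shRNA, 335 and 342 with shRNA 1, and 213 and 243 with shRNA 2. Of its 3 probes, 1 was kept. LFNG was lower on both shRNA 2 arrays than on the other 4, and fell by 0.88 ± 0.11 against NS shRNA (adjusted p = 0.0154) and by 0.90 ± 0.11 against shRNA 1 (adjusted p = 0.0103). The median of the 24 genes was -0.0089 with shRNA 2, beside -0.0060 over all rows. Leaving out 1 array ended the LFNG call against NS shRNA for NS shRNA replicate 1 (-0.85, adjusted p = 0.134) or 2 (-0.91, 0.109) and PEA15 shRNA 2 replicate 1 (-0.79, 0.124) or 2 (-0.97, 0.0776), in a range of 5.4e-05 to 0.134 over 15 alternatives. Against shRNA 1 the LFNG call ended with PEA15 shRNA 1 replicate 1 left out (-0.82, adjusted p = 0.0733), or with shRNA 2 replicate 1 (-0.81, 0.0748) or 2 (-0.99, 0.0603) left out.

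**Figure D4:**
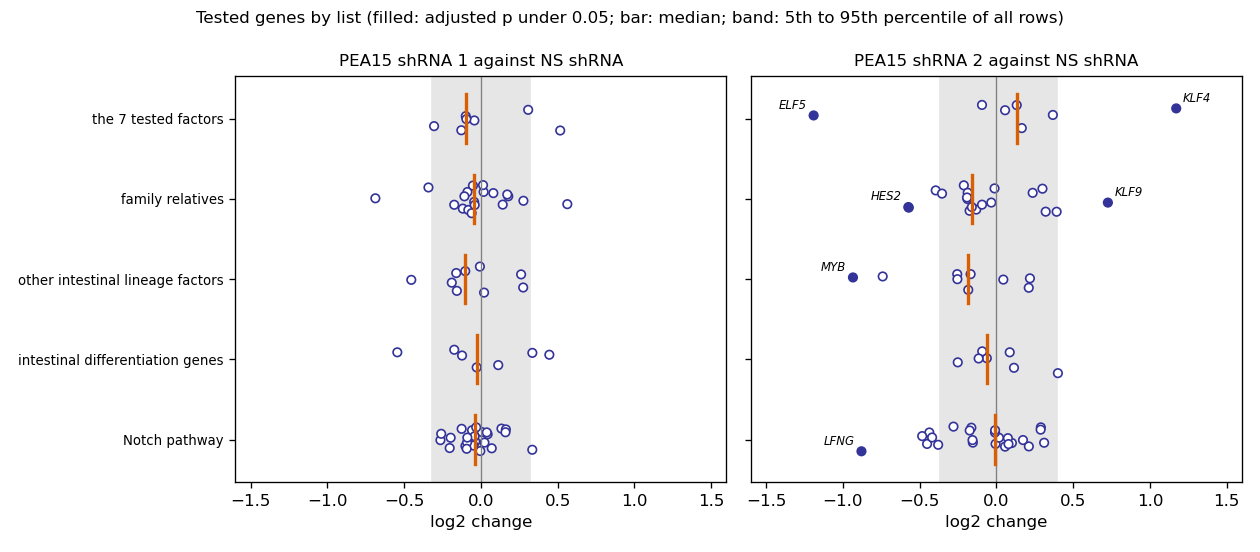
Log2 change of the 7 tested factors and of the tested genes of 4 lists against NS shRNA, for shRNA 1 (left) and shRNA 2 (right), with filled and named points for adjusted p under 0.05, a bar at each median and a grey band over the central 90% of all rows. With shRNA 2 the filled points are KLF4, ELF5, KLF9, HES2, MYB and LFNG, and with shRNA 1 there are none.

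For the 3 called factors, the 3 named genes whose log2 values ran closest over the 6 arrays were taken by the Euclidean distance between values centred on each gene's mean. Closest to ELF5 were RBMS1, which encodes an RNA-binding protein (distance 0.47), MYB (0.54) and the secreted Wnt inhibitor NOTUM (0.54). Their changes with shRNA 2 were -1.13, -0.93 and -0.77. Closest to KLF4 were the sterol demethylase CYP51A1 (distance 0.28), the autophagy protein ATG12 (0.38) and the zinc finger factor GLIS3 (0.42), with changes of 0.95, 1.06 and 1.14 with shRNA 2. Closest to ELF3 were the matrix protein FRAS1 (distance 0.069), the semaphorin receptor PLXNB2 (0.080) and the membrane protein MYOF (0.089), with changes of 0.37, 0.38 and 0.41. With 6 arrays in 3 groups these likenesses are a description of the same group differences.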

How the data were processed

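Total RNA of 6 HCT116 samples was hybridised to Illumina expression arrays, with 3 groups of 2 taken from the labels. The deposited non-normalized table holds a mean bead intensity on a linear scale, with arrays whose highest values lay between 22579 and 24779. It also holds a deposited detection p-value for each intensity. A second deposited table gives the authors' own log2 values, for which the submitters' processing notes name lumi, with its version not given in the sources used here.

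Intensities were corrected, quantile normalized and put on a log2 scale with neqc of limma 3.58.1 (R 4.3.3), offset 16, which understates changes of dim probes. A probe was kept if 1 group or more had it detected (p under 0.05) on both of its arrays (19781), and the brightest kept probe on average stood for a gene. Names came from the platform annotation: 30113 probes had 1 symbol, 8 several, and 17202 were not listed. One limma model with a mean per group was fitted to 15967 rows (11498 genes), with 3 residual and 4.54 prior degrees of freedom, two-sided, adjusted by Benjamini-Hochberg over all rows, threshold 0.05. The fit was tested on simulated data. Values of a probe outside these rows came from the fit of every kept probe.

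The members, the 4 lists, the tests and the 15 alternatives were chosen with earlier results of these data known. The naming rule takes every member, the 3 genes most like each called member, and up to 6 called genes a list. FOXA1, HOXB13, FABP6 and GPA33 were named after their values were seen.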

Additional observations from a re-analysis of the deposited data

Results flagged for a closer look

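ELF3 and ELF5 passed the direct test between the PEA15 hairpins in the main fit, and neither passed with no detection filter. ELF5 entered that test only through the NS and shRNA 1 groups, in which it was brighter. ELF3 was 0.47 higher on the log2 scale with shRNA 2 than with shRNA 1 (limma adjusted p = 0.0490), with both shRNA 2 arrays above both shRNA 1 arrays. In the main fit ELF5 lay at least 1.92-fold below the shRNA 1 mean with shRNA 2 (limma adjusted p = 0.0388). That bound holds for those settings only and leaves out the spread of the shRNA 1 arrays. ELF5 was undetected on both shRNA 2 arrays, so the fitted change of -1.06 is no measured size. The ELF5 call was lost without any 1 of the 4 arrays compared, and the ELF3 call without any 1 of the 6. Groups of 2 arrays are too small to look for a single array far from the rest.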

How the results depend on the processing

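Of 315 values of members under alternatives, 267 kept their direction and their side of the threshold, 29 lost a call, 10 gained one and 9 changed sign. With 2 arrays a group, calls near the threshold moved with most choices. For shRNA 1 against NS shRNA the number of members called was 0 under all 15 alternatives (limma, with 1441 to 2945 of all rows at an unadjusted p under 0.05). For shRNA 2 against NS shRNA it was 2 and became 1 (KLF4) with the replicate block, with only the 2 groups compared or with no detection filter, 3 (KLF4, ELF5 and ELF3) with no background correction, the submitters' values, a larger offset or a trended prior, and 0 to 1 without 1 array. For shRNA 2 against shRNA 1 it was 2 and became 0 with no detection filter, 1 (ELF5) with every kept probe or only the 2 groups compared, 1 (KLF4) with the replicate block, 3 (the same 3 genes) under those 4 alternatives and the stricter detection filter, and 0 to 1 without 1 array. Where an array was left out, the lone array of its group was taken to vary like the other groups. Differences between replicates 1 and 2 correlated across rows with r from -0.02 to 0.08 between groups. Whether samples of the same replicate number shared a culture or day is not in the labels and is not settled by these values. With the replicate block the rows called went from 271 to 142 for shRNA 2 against NS shRNA, from 530 to 333 between hairpins and from 3 to 0 for shRNA 1 (limma, unadjusted p under 0.05 for 1927 rows). Over all alternatives the rows called ran from 0 to 162 for shRNA 1, from 17 to 1004 for shRNA 2 and from 35 to 1785 between hairpins. Signs that turned belonged to uncalled changes near 0 when 1 array was left out. For shRNA 1 these were CDX2 (-0.10 to 0.015), ELF5 (-0.41 to 0.15), KLF9 (-0.29 to 0.074) and LFNG (-0.064 to 0.11). For shRNA 2 against NS shRNA they were KLF5 (-0.10 to 0.43) and HES1 (-0.033 to 0.15), and between hairpins CDX2 (-0.12 to 0.017). The cause of these moves was not tested. Signals of ELF5, KLF5 and KLF4 lay near the array medians, so their folds depend on the background correction and the offset.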
